A study of Mus musculus with 8 samples.

Results

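The neuroactive ligands and receptors of mouse wound skin were taken from the deposited count table as the rows that its annotation places in the pathway "Neuroactive ligand-receptor interaction", which number 297. The rule left out 17 genes by name (Mc1r, Mc5r, Apln, Aplnr, Chrna1, Chrng, Lep, Adm, Ptger1, Ptger2, Ptger3, Ptger4, C3, C3ar1, C5ar1, Gpr39 and Mrgprb2), of which 15 were among these rows. Members were then chosen by their measured abundance, as genes with at least 10 counts summed over the 8 samples of both groups, which removed 72 rows, 6 of them without any count. This gave 210 members out of 18540 genes in the table. Just inside the limit, with 10 counts each, were Calcr, Grid1, Kng1, Mc4r, Npffr1, Pomc and Sstr4. Just outside it, with 9 counts each, were Fpr3, Glra3, Nmbr, Pmch, Tacr2 and Vip.

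The study made full-thickness skin wounds on the backs of mice and compared wounds that received PBS with wounds that received ZCZ, a nanocomposite of ZnO2 and CeO2 in a ZIF-8 shell, which is a zinc and imidazole framework. Z1C2Z is the form made with more CeO2 for the same amount of ZnO2. Total RNA from skin was sequenced after depletion of ribosomal RNA in 4 samples titled con, here control-1 and so on with the numbers 1, 2, 3 and 5. The other 4 are titled shiyan, here Z1C2Z-1 and so on with the numbers 1, 2, 4 and 5. These are the numbers of the study's Z1C2Z samples, and on that ground the shiyan samples were taken as Z1C2Z. The study's text names only ZCZ for the sequenced wounds, without its form. Wherever 4 values of a group are given, they follow this order of sample numbers. The methods give 15 days of treatment for the sequenced ZCZ wounds and state no time for the control samples. No genetic change was made in either group by the study. The study used C57BL mice at 6 weeks and diabetic db/db mice at 10 weeks of age, and the labels do not say which of these the sequenced samples came from. The db mutation lies in the leptin receptor gene Lepr, and counts per gene do not separate its transcript forms. Each mouse carried a pair of wounds and nothing in the labels ties a sample to a mouse, so the p-values measure the spread between these samples only. Between 28856790 and 38974888 counts were assigned to genes per sample.

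This pathway of the KEGG database lists receptors, mainly at the cell surface, and the transmitters, peptides, hormones and lipids that bind them. The pathway also holds nuclear hormone receptors and the mitochondrial translocator protein. Many of its receptors couple to G proteins, while others are ion channels that a transmitter opens. In skin these molecules are used by sensory and sympathetic nerve endings, and also by keratinocytes, melanocytes, fibroblasts, vessels, muscle and leukocytes, where they regulate contraction, permeability, migration, itch and pain.

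Most members were scarce. Of the 210, 137 passed the low-count filter of edgeR (filterByExpr) and were tested, and 73 did not. The latter had between 10 and 109 counts in total over the 8 samples (median 26) and reached at most 1.17 CPM, the count scaled to a common library size, in any sample. The filter lay at 0.272 CPM, and 115 of the tested members were at or over it in all 8 samples. A further 9 were over it in all Z1C2Z samples but not in all control samples, 6 in all control samples but not in all Z1C2Z samples, and 7 in other combinations. The median level over the 137 tested members was 3.48 CPM, against 23.7 CPM over all 15147 genes tested. Divided by exon length in kilobases (RPKM), the members with the highest levels were Lpar1, a receptor for lysophosphatidic acid, at 26.9 RPKM, and Tspo, the mitochondrial translocator protein, at 25.5. They were followed by the protease-activated receptors F2rl1 at 23.6 and F2r at 23.5, the sphingosine 1-phosphate receptor S1pr1 at 23.3, the glucocorticoid receptor Nr3c1 at 22.7 and the endothelin receptor Ednrb at 22.0. The genes with the most reads, regardless of length, were Nr3c1 with a mean of 174 CPM and Lpar1 with 115 CPM.

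Compared with the control group, 10 of the 137 tested members were higher and 13 were lower in Z1C2Z wounds (edgeR's quasi-likelihood test, adjusted p under 0.05 over all genes tested). These are 7.30% and 9.49% of the members, while 4.28% of all genes tested were higher and 3.85% lower by the same rule. With a log2 fold change over 1 added, 7 members (5.11%) were higher, against 2.15% of all genes, and 6 members (4.38%) were lower, against 1.25%. Of these 7 higher members, 5 (Chrna4, Htr1d, Npy and Sct among them) reached the low-count filter in all Z1C2Z samples but not in all control samples, and 1 of the 6 lower members, Adra1d, in all control samples only, so the shares are not read against the background as a result about the members. When 10 counts were required in every sample, 2 members were higher with this fold, and with the sample number as a replicate block 3 were. Of the 5 members with the highest RPKM, 4 were among the lower ones, namely Lpar1, F2r, F2rl1 and S1pr1. The higher members included Chrna4, Gabrp, Htr1d, Lpar3, Lpar6, Npy, Oxtr, Pard3 and Sct, of which Chrna4, Htr1d, Npy and Sct stayed under 4 CPM in all samples. The median log2 fold change over the tested members was -0.17 (quartiles -0.67 and 0.25), against 0.01 over all genes tested, and 87 members lay under 0 and 50 over 0. Among 113 tested receptors, 7 were higher and 11 lower, and the median log2 fold change was -0.27. Among 20 tested ligands, 2 were higher and 2 lower, with a median of -0.11. In whole tissue, fewer cells of a type and less RNA per cell cannot be told apart.

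**Figure D1:**
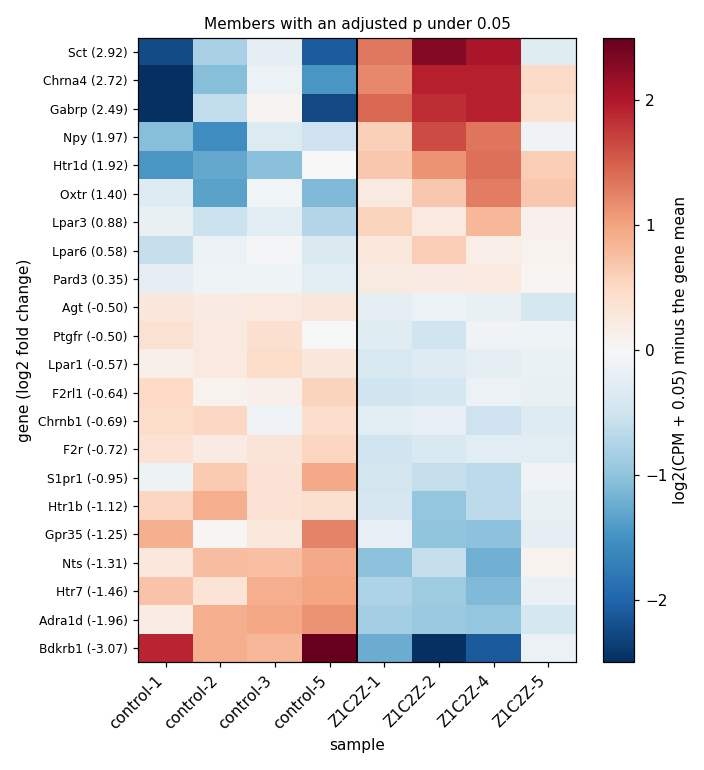
Heat map of 22 of the 23 members with an adjusted p under 0.05, one row per gene with its log2 fold change, and one column per sample. Colour is log2(CPM + 0.05) minus the gene's mean over the 8 samples and saturates at the ends of the scale. In the upper block the columns of Z1C2Z-2 and Z1C2Z-4 are the darkest red, and that of Z1C2Z-5 is the palest of its group in most rows.

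The groups did not overlap in 9 of the 10 higher members and in 12 of the 13 lower members. Since these members were called on the same values, this adds no separate support. Over all tested members, every Z1C2Z sample lay above every control sample in 13 (9.49%, against 8.45% of all genes tested) and below in 20 (14.6%, against 8.82%). The samples of the Z1C2Z group were unequal. The 2 highest samples of that group were Z1C2Z-2 and Z1C2Z-4 in 7 of the 10 higher members, whereas Z1C2Z-5 was its lowest sample in 9 of them. In the 13 lower members, Z1C2Z-5 was the highest Z1C2Z sample in 7 and control-5 the highest control sample in 9. The calls depended on single samples. When control-5 was left out, edgeR called 0 members and 0 genes of any kind, with 51 members at an unadjusted p under 0.05. The same counts of 0 came from leaving out Z1C2Z-1, Z1C2Z-2 or, in turn, Z1C2Z-4, with 54, 49 and 44 members at an unadjusted p under 0.05. Without control-2, 0 members were higher and 2 lower, and without Z1C2Z-5, 16 were higher and 18 lower. All 23 called members kept their direction in each of these fits.

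Marker genes of several skin cell types moved together with these groups, and their part in the results was not tested. All 12 hair shaft and matrix markers were higher in Z1C2Z wounds (10 of 12 without overlap), and their summed level ranged from 86.8 to 333 CPM in the control group and from 400 to 3009 CPM in the Z1C2Z group, where Z1C2Z-5 was lowest. Of 8 melanocyte markers 7 were higher, with sums of 149 to 248 CPM in controls and 321 to 691 CPM in Z1C2Z wounds. Of 12 skeletal muscle markers 3 were lower, with sums of 3629 to 6763 CPM against 3049 to 3432 CPM. Pericyte and smooth muscle markers (2 of 8 lower) summed to 1177 to 1839 CPM in controls and 843 to 1028 CPM in Z1C2Z wounds, and fibroblast markers (3 of 7 lower) to 55001 to 78199 CPM against 43197 to 60642 CPM. Of 6 erythroid markers 2 were lower, Alas2 (log2 fold change -1.17) and Hbb-bt (-1.19), and the sums were 197 to 363 CPM in controls and 86.2 to 211 CPM in Z1C2Z wounds. Slc4a1 alone in this list had a log2 fold change over 0, at 2.26, and did not pass (edgeR adjusted p = 0.0640). None of the neutrophil, macrophage and endothelial markers passed the test, although their sums spread widely. The sums were 610 to 1561 CPM against 174 to 719 CPM for neutrophil markers, 2390 to 2954 against 1408 to 2432 for macrophage markers, and 327 to 877 against 284 to 530 for endothelial markers. The 12 sensory and autonomic neuron markers summed to 11.4 to 21.4 CPM in controls and 17.2 to 24.6 CPM in Z1C2Z wounds, with 5 of 12 abundant enough to test and none passing. Tubb3 made up most of these sums, with group means of 13.5 and 18.9 CPM. Its log2 fold change was 0.48 and that of Th 0.06, while Isl1, Trpv1 and Nefl had -0.22, -0.65 and -1.39. No marker of these lists was at 0 in all samples, and the keratinocyte markers that define skin were abundant, with sums of 11418 to 17799 CPM.

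**Figure D2:**
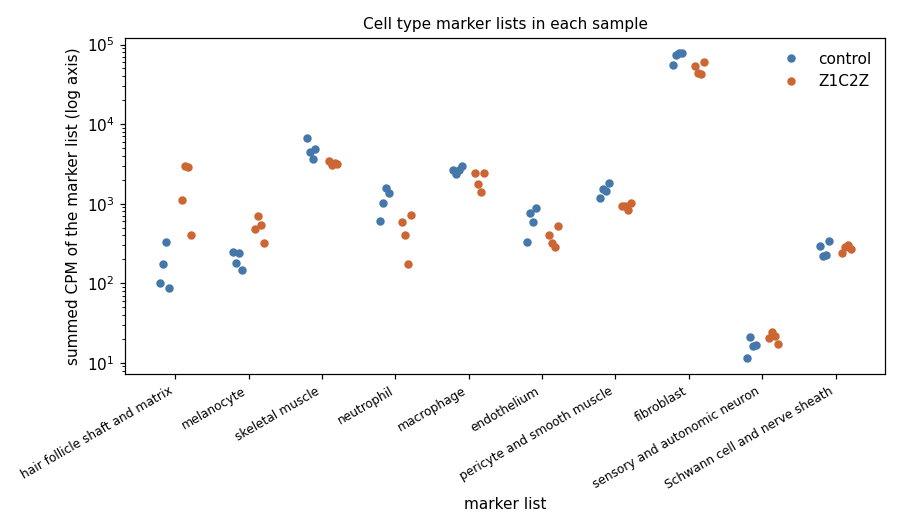
Summed CPM of each marker list (log axis) in each control sample (blue) and each Z1C2Z sample (orange). Hair follicle and melanocyte sums of the 4 Z1C2Z samples all lie above those of the control samples, while muscle and pericyte sums lie below them.

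The 250 bases upstream of the annotated start were searched, on both strands, for short motifs in the RefSeq promoter table (build GRCm38.p6), which matched 157 of the 210 members with 200 windows and 18 of the 23 called genes. Adra1d, Bdkrb1, F2rl1 and S1pr1 were not among them. The AP-1 motif TGANTCA was present in 6.75% of 32851 windows of all genes and in 11% of the members' windows. It occurred in 3 of the 12 windows of lower genes, those of F2r, Nts and Gpr35, and in 0 of the 11 windows of higher genes. The TCF/LEF motif CTTTGAT, in 3.21% of all windows, occurred in 1 of the 11 windows of higher genes, that of Gabrp, which holds 2 copies. The TATAAA motif was in 12.4% of all windows and 12.5% of the members' windows, and TGACGTCA, the cyclic AMP response element, in 1.55% and 1.00%. A match is a description of letters, not of a bound site. TATAAA occurred in windows of the called genes Pard3, Sct, Agt and Chrnb1, which are not printed. The windows of called genes with an AP-1 or TCF/LEF match are shown to give these matches in their context, 5′ to 3′ on the gene's strand, with the motif or its reverse complement in capitals. F2r lies at chr13:95618467-95618716 on the minus strand with the motif 204 bases before the start, Nts at chr10:102490419-102490668 on the minus strand with the motif 207 bases before it. The window of Gpr35 is chr1:92978653-92978902 on the plus strand with the motif 184 bases before the start. That of Gabrp is chr11:33578958-33579207 on the minus strand, with copies 151 and 127 bases before the start.
F2r: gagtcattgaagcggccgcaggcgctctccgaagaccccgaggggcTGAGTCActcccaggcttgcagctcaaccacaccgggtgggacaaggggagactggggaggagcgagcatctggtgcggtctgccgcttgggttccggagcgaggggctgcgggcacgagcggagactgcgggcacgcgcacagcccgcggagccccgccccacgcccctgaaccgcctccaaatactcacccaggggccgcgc
Nts: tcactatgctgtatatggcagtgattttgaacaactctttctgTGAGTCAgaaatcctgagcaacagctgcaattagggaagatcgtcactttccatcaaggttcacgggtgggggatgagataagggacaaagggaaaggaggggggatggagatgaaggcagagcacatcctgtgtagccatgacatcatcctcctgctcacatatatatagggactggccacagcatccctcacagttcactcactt
Gpr35: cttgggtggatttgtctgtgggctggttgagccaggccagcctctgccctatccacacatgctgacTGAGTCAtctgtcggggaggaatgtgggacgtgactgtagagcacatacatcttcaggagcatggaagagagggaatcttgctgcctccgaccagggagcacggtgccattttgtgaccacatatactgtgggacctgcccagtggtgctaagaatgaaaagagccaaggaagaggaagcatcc
Gabrp: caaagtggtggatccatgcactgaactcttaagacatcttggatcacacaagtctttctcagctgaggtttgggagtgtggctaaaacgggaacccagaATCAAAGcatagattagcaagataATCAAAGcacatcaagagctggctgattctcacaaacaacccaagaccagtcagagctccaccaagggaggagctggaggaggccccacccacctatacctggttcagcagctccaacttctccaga

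Among the receptors, lysophospholipid receptors were called in both directions. They bind lysophosphatidic acid (Lpar genes) or sphingosine 1-phosphate (S1pr genes), lipids released by platelets and made by many cells, and all 10 members were tested. Lpar1 had 124, 134, 155 and 138 CPM in controls, and 84.9, 90.7, 96.1 and 100 CPM in Z1C2Z wounds. Every Z1C2Z sample lay below every control sample, and the log2 fold change was -0.57 ± 0.10 (SE, n = 4 per group, edgeR adjusted p = 0.0299). Lpar3 moved the other way, with 5.19, 4.02, 4.88 and 3.55 CPM in the control samples and 8.71, 6.97, 10.5 and 6.35 CPM in the Z1C2Z samples. Its groups did not overlap either, and its level was 1.85 times that of controls (log2 fold change 0.88 ± 0.20, edgeR adjusted p = 0.0373). Lpar6, a receptor whose loss in people gives sparse woolly hair, had 29.98, 40.9, 43.4 and 34.9 CPM in controls and 54.6, 69.4, 50.9 and 48.3 CPM in Z1C2Z wounds, again without overlap (log2 fold change 0.58, edgeR adjusted p = 0.0484). Lpar6 lies within the retinoblastoma gene Rb1 on the opposite strand, and 7.56% of its exon bases overlap exons of Rb1. Since the strand setting of the counting is not given in the sources used here, some of its reads could come from Rb1. The sum of hair shaft markers was higher in all 4 Z1C2Z samples as well.

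The sphingosine 1-phosphate receptor S1pr1, which holds the barrier of vessels and guides lymphocytes, had 59.9, 103, 84.6 and 127 CPM in control samples and 47.5, 43.3, 41.1 and 61.7 CPM in Z1C2Z samples. The lowest control sample, control-1, lay below the highest Z1C2Z sample, Z1C2Z-5, so the groups overlapped. The mean of the Z1C2Z group was 48.4 ± 9.26 CPM against 93.5 ± 28.2 CPM (SD, n = 4). The difference was -0.95 on the log2 scale and passed edgeR's test (adjusted p = 0.0391), with p = 0.0571 in the exact two-sided permutation test. Endothelial markers followed a like order within the control group, with 327 CPM in control-1 and 877 CPM in control-5. The other 6 members of the family did not pass the test, with log2 fold changes between -0.64 for S1pr3 and 0.64 for S1pr5.

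**Figure D3:**
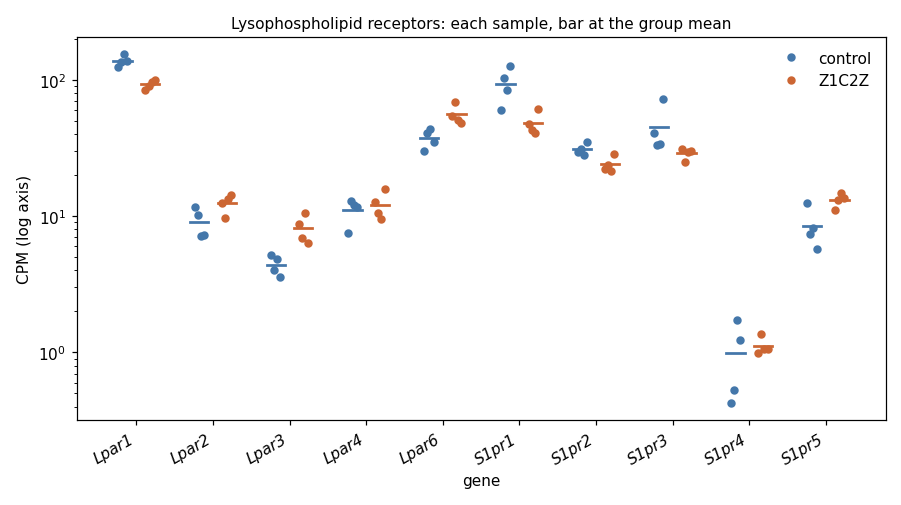
CPM (log axis) of the 10 lysophospholipid receptors in each control sample (blue) and Z1C2Z sample (orange), with a bar at each group mean. Within this family Lpar1 lies below controls in all 4 Z1C2Z samples, and Lpar3 and Lpar6 lie above them. Levels are not scaled by gene length, so genes are not to be compared with each other.

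The protease-activated receptors are cut by thrombin, trypsin-like and other proteases and signal through the new end of the receptor itself. All 4 were tested and 2 were lower. F2r, the thrombin receptor, whose promoter window with its AP-1 motif is shown above, had the smallest adjusted p of all members. It had 97.3, 87.3, 95.6 and 111 CPM in controls, and 53.4, 58.0, 63.3 and 62.8 CPM in Z1C2Z wounds. The groups lay well apart, with a Z1C2Z level of 0.608 times the control level (log2 fold change -0.72 ± 0.10, edgeR adjusted p = 0.0280, exact two-sided permutation test p = 0.0286, the smallest that 4 against 4 samples allow). F2rl1, a receptor for trypsin-like proteases on keratinocytes and nerve endings, had 88.4, 66.7, 68.6 and 92.4 CPM in controls and 44.4, 46.3, 56.3 and 55.3 CPM in Z1C2Z wounds. Here too every Z1C2Z sample lay below every control sample (log2 fold change -0.64 ± 0.14, edgeR adjusted p = 0.0336). The other 2 receptors, F2rl2 and F2rl3, were scarce and did not pass, with log2 fold changes of 0.59 and -1.23. Of the 4 proteases in the pathway, only granzyme A (Gzma) was abundant enough to test, at 0.22 on the log2 scale without passing. Thrombin itself (F2), plasmin (Plg) and cathepsin G (Ctsg) fell below the filter. The marker sums of pericytes and smooth muscle were also lower in all 4 Z1C2Z samples, while those of macrophages and fibroblasts overlapped between the groups. Of the 8 pericyte and smooth muscle markers, only Acta2 and Des were lower without overlap. Des was highest in control-1, at 334 CPM, where the skeletal muscle sum was highest too.

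The kinin receptors carried the largest fall. Bradykinin B1 receptor (Bdkrb1), which is induced in injured and inflamed tissue, had 10.8, 5.44, 5.10 and 18.6 CPM in controls and 1.18, 0.363, 0.628 and 2.58 CPM in Z1C2Z wounds. The control samples varied widely among themselves and still all lay above the Z1C2Z samples (log2 fold change -3.07 ± 0.64, edgeR adjusted p = 0.0315). Bdkrb2, the constitutive B2 receptor, had 7.96, 9.46, 10.2 and 18.5 CPM in controls and 6.80, 4.22, 4.44 and 6.57 CPM in Z1C2Z wounds, and did not pass although its groups were apart (log2 fold change -1.07 ± 0.29, edgeR adjusted p = 0.0525). The kininogen Kng2, a precursor of their ligand, had -1.15 on the log2 scale with overlapping groups (adjusted p = 0.191). Neutrophil marker sums were lower in Z1C2Z wounds than in 3 of the 4 control samples.

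In the angiotensin system, the precursor Agt had a narrow spread, with 6.93, 6.58, 6.75 and 7.01 CPM in controls and 4.85, 5.16, 5.05 and 4.21 CPM in Z1C2Z wounds. All Z1C2Z samples were lower (log2 fold change -0.50 ± 0.13, edgeR adjusted p = 0.0472). Its receptor Agtr1a had group means of 6.85 ± 1.45 CPM and 6.26 ± 0.568 CPM (SD, n = 4) and did not pass (adjusted p = 0.661). Agtr2 was split within the control group, at 13.1 CPM in control-2 and 30.8 CPM in control-3 but 0.391 CPM in control-1 and 0.423 CPM in control-5. The Z1C2Z samples lay between these pairs, at 1.75 to 4.49 CPM, and the difference did not pass (log2 fold change -2.06, adjusted p = 0.268).

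**Figure D4:**
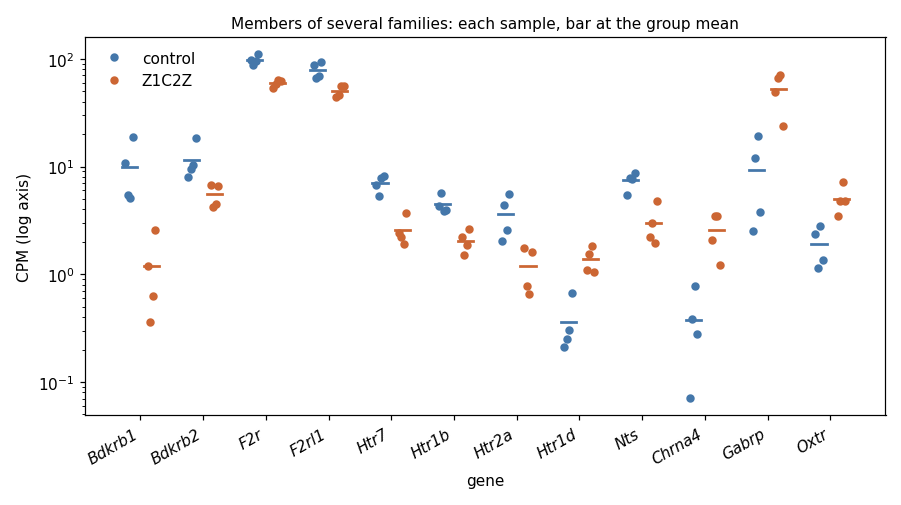
CPM (log axis) of 12 members of the kinin, protease-activated, serotonin, neurotensin, nicotinic, GABA and oxytocin systems in each control sample (blue) and Z1C2Z sample (orange), with a bar at each group mean. Groups are apart in all 12 genes, Bdkrb2 and Htr2a included, which did not pass the adjusted test. Levels are not scaled by gene length.

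Among dopamine, serotonin and histamine receptors, 3 serotonin receptors passed, again in both directions. Serotonin is released in wounds by platelets and, in mice, by mast cells. Htr7, a receptor coupled to cyclic AMP formation, had 6.79, 5.27, 7.82 and 8.22 CPM in control samples and 2.40, 2.20, 1.91 and 3.69 CPM in Z1C2Z samples. Its groups did not overlap, and its level in Z1C2Z wounds was 0.363 times that of controls (log2 fold change -1.46 ± 0.24, edgeR adjusted p = 0.0299). Htr1b, which inhibits cyclic AMP formation and constricts vessels, had 4.33, 5.66, 3.86 and 3.97 CPM against 2.20, 1.503, 1.88 and 2.61 CPM. These groups were apart as well (log2 fold change -1.12 ± 0.22, edgeR adjusted p = 0.0303). Its close relative Htr1d rose from 0.213, 0.250, 0.303 and 0.676 CPM in controls to 1.10, 1.53, 1.83 and 1.05 CPM in Z1C2Z wounds, with counts of 6 to 24 reads per control library and 38 to 73 per Z1C2Z library. All Z1C2Z samples were above all controls, at 3.77 times their level (log2 fold change 1.92 ± 0.41, edgeR adjusted p = 0.0324). Htr1d reached the low-count filter in 2 of the 4 control samples and in all Z1C2Z samples, so it was tested through the group in which it was higher. Htr2a, the receptor that contracts smooth muscle, had 2.03, 4.44, 2.59 and 5.52 CPM against 1.75, 0.777, 0.653 and 1.61 CPM, apart but just short of the threshold (log2 fold change -1.61, edgeR adjusted p = 0.0507). Of the 13 dopamine, serotonin and histamine receptors, 7 were tested, and none of the other 3 passed. Mast cell marker sums overlapped between the groups, at 170 to 264 CPM and 167 to 216 CPM.

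One of 6 tested adrenoceptors passed. Adra1d, an alpha 1 adrenoceptor of smooth muscle, was near the filter, with 8, 18, 19 and 21 reads in control libraries and 4, 4, 4 and 6 reads in the Z1C2Z samples. In CPM these are 0.284, 0.500, 0.523 and 0.592 against 0.113, 0.104, 0.100 and 0.166 (log2 fold change -1.96 ± 0.38, edgeR adjusted p = 0.0303). All control samples lay over the filter of 0.272 CPM and all Z1C2Z samples under it, so Adra1d was tested only because of the group in which it was higher. Under the replicate block, edgeR gave it an adjusted p of 0.165, and it had no value when 10 counts were required in every sample. The sum of pericyte and smooth muscle markers was lower in Z1C2Z wounds, where 2 of the 8 markers, Acta2 and Des, passed the test.

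Among the ion channels that transmitters open, 3 members passed. Chrna4, a nicotinic acetylcholine receptor subunit best known from neurons, had 2, 14, 28 and 10 reads in the control libraries and 73, 134, 138 and 44 reads in the Z1C2Z libraries. As levels these are 0.0711, 0.389, 0.771 and 0.282 CPM against 2.06, 3.47, 3.47 and 1.22 CPM. The groups did not overlap, and the Z1C2Z level was 6.58 times the control level (log2 fold change 2.72 ± 0.57, edgeR adjusted p = 0.0320). Chrna4 reached the low-count filter in 3 of the 4 control samples and in all Z1C2Z samples, so its test relied on the group in which it was higher. Chrnb1, a subunit of the acetylcholine receptor of the neuromuscular junction, went down, from 8.06, 8.33, 5.48 and 7.97 CPM in controls to 4.77, 5.05, 4.04 and 4.69 CPM. Control-3 stood apart from the other controls and still lay above all Z1C2Z samples (log2 fold change -0.69 ± 0.17, edgeR adjusted p = 0.0430). Chrnd, another muscle subunit, had group means of 4.22 ± 0.871 CPM and 2.15 ± 0.661 CPM (SD, n = 4) without overlap, at an edgeR adjusted p of 0.0502. Skeletal muscle marker sums did not overlap between the groups and were the lower ones in Z1C2Z wounds.

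The GABA receptor subunit Gabrp, which is found in epithelia outside the brain and has a pair of TCF/LEF motifs in its window, had 2.52, 11.9, 19.2 and 3.80 CPM in controls. In Z1C2Z wounds it had 49.3, 66.2, 70.8 and 23.98 CPM. It was the only one of 5 tested GABA receptor members that passed, and the Z1C2Z level was 5.60 times the control level (log2 fold change 2.49 ± 0.61, edgeR adjusted p = 0.0433). Control-3 and control-2 were the highest controls and Z1C2Z-5 the lowest Z1C2Z sample, which is also the order of the hair follicle marker sums (333 and 173 CPM, then 400 CPM). The remaining 4 GABA receptor members lay between -0.40 and -0.11 on the log2 scale. Glutamate receptors were the largest channel family, with 22 members, of which 15 were below the filter and none of the 7 tested passed. The one with the most reads was Gria3, an AMPA receptor subunit, at 18.2 ± 4.30 CPM and 16.8 ± 2.54 CPM (SD, n = 4). Grik3, a kainate receptor subunit, had non-overlapping groups at 1.14 ± 0.597 CPM and 2.66 ± 0.568 CPM (edgeR adjusted p = 0.0769).

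In peptide signalling, Oxtr, the oxytocin receptor, was higher. It had 2.34, 1.14, 2.81 and 1.35 CPM in control samples and 3.47, 4.74, 7.21 and 4.74 CPM in Z1C2Z samples. The groups were apart and the level was 2.64 times that of controls (log2 fold change 1.40 ± 0.34, edgeR adjusted p = 0.0411). Among the 13 tested neuropeptide receptors no other passed in either direction. Avpr1a, the vasopressin receptor with the most reads of these, had 15.3 ± 4.55 CPM and 9.64 ± 1.36 CPM (SD, n = 4), apart but not past the threshold (edgeR adjusted p = 0.0784).

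The ligands gave 4 calls. Neurotensin (Nts), a peptide of gut and brain that also acts on vessels and mast cells, also holds an AP-1 motif in its window and had 5.44, 7.83, 7.71 and 8.76 CPM in controls and 2.20, 3.01, 1.96 and 4.82 CPM in Z1C2Z wounds. All Z1C2Z samples lay below all controls, with Z1C2Z-5 close to control-1 (log2 fold change -1.31 ± 0.29, edgeR adjusted p = 0.0362). Its receptor Ntsr2 was below the filter. Neuropeptide Y (Npy), the co-transmitter of sympathetic nerves, was scarce, with 6, 5, 14 and 12 reads in control libraries and 28, 64, 54 and 17 in Z1C2Z libraries. Its levels of 0.213, 0.139, 0.386 and 0.338 CPM against 0.790, 1.66, 1.36 and 0.471 CPM did not overlap (log2 fold change 1.97 ± 0.48, edgeR adjusted p = 0.0423). Npy reached the low-count filter in 2 of the 4 control samples and in all Z1C2Z samples, so it was tested through the group in which it was higher. Its receptor Npy1r had 5.50 ± 1.09 CPM and 5.37 ± 1.05 CPM (SD, n = 4) and did not pass (adjusted p = 0.924). Secretin (Sct), a gut hormone, had 2, 10, 16 and 3 reads in controls and 49, 106, 92 and 15 in Z1C2Z wounds. The groups overlapped, since Z1C2Z-5 at 0.416 CPM lay below control-3 at 0.441 CPM (log2 fold change 2.92 ± 0.69, edgeR adjusted p = 0.0395, exact two-sided permutation test p = 0.0571). Sct too reached the filter in 2 of the 4 control samples and in all Z1C2Z samples. Its receptor Sctr had a log2 fold change of -0.37 and did not pass. Angiotensinogen, given above, was the fourth.

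Endothelins, which constrict vessels and in skin drive melanocytes, had all 3 genes tested and none past the threshold. Edn1, the most abundant in reads, had 24.2 ± 6.03 CPM and 23.4 ± 5.50 CPM (SD, n = 4). Edn2 had 1.14, 1.17, 1.60 and 0.620 CPM in controls and 2.71, 2.49, 3.11 and 1.61 CPM in Z1C2Z wounds. Its groups were apart by the margin of 1.60 against 1.61 CPM (log2 fold change 1.13 ± 0.32, edgeR adjusted p = 0.0618). Edn3, the endothelin that acts on melanocyte precursors, had a log2 fold change of 0.91 with overlapping groups (adjusted p = 0.0563). The receptor Ednrb, one of the most abundant members, had 88.1 ± 19.9 CPM and 99.8 ± 17.9 CPM and did not pass (adjusted p = 0.541). Melanocyte marker sums were higher in all Z1C2Z samples.

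Lipid mediator receptors outside the lysophospholipid family had 1 call among 9 tested. Ptgfr, the receptor of prostaglandin F2 alpha, had 50.4, 45.8, 51.5 and 38.4 CPM in controls and 31.3, 27.3, 36.8 and 35.9 CPM in Z1C2Z wounds. The groups were apart, with control-5 closest to the Z1C2Z samples (log2 fold change -0.50 ± 0.13, edgeR adjusted p = 0.0477). Gpr35, a receptor of leukocytes and gut for which kynurenic acid and a serotonin metabolite have been proposed as ligands, had 43.0, 23.8, 27.7 and 54.9 CPM against 20.2, 11.4, 11.4 and 19.8 CPM. It too was lower in every Z1C2Z sample (log2 fold change -1.25 ± 0.31, edgeR adjusted p = 0.0424). Pard3 is a scaffold of cell polarity and no receptor or ligand, although the deposited annotation lists it in this pathway. It had 70.8, 77.0, 76.6 and 68.1 CPM in controls and 96.5, 94.5, 97.5 and 84.8 CPM in Z1C2Z wounds, a small and even difference (log2 fold change 0.35 ± 0.08, edgeR adjusted p = 0.0397).

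Several large or abundant families had no call. All 19 purine and adenosine receptors were tested and none passed, with log2 fold changes between -1.05 and 0.38. The most abundant in reads, the ATP-gated channel P2rx4, had 48.3 ± 9.35 CPM and 34.3 ± 6.71 CPM (SD, n = 4, edgeR adjusted p = 0.110). P2ry10 and P2ry10b are closely related neighbours whose reads could be split between them, so their separate values are uncertain. The 2 formyl peptide receptors, Fpr1 and Fpr2, which sense bacterial and mitochondrial peptides on neutrophils, had log2 fold changes of -1.48 and -1.41 with overlapping groups (adjusted p = 0.153 and 0.143). They are close relatives, and neutrophil marker sums, of which Fpr1 is a part, had the ranges given above. Calcrl, the receptor of calcitonin gene-related peptide and adrenomedullin on vessels and nerves, had 54.8, 85.6, 78.3 and 96.6 CPM in controls and 51.8, 46.3, 44.4 and 63.7 CPM in Z1C2Z wounds. These groups overlapped (log2 fold change -0.61 ± 0.18, edgeR adjusted p = 0.0675). The growth hormone receptor Ghr had 126 ± 10.9 CPM and 102 ± 12.7 CPM (SD, n = 4, adjusted p = 0.113). Nr3c1 had 180 ± 8.97 CPM and 168 ± 25.1 CPM (adjusted p = 0.588), Lepr 58.1 ± 9.25 CPM and 57.1 ± 5.38 CPM (adjusted p = 0.919), and the parathyroid hormone receptor Pth1r 16.8 ± 1.30 CPM and 15.4 ± 1.93 CPM (adjusted p = 0.522).

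**Figure D5:**
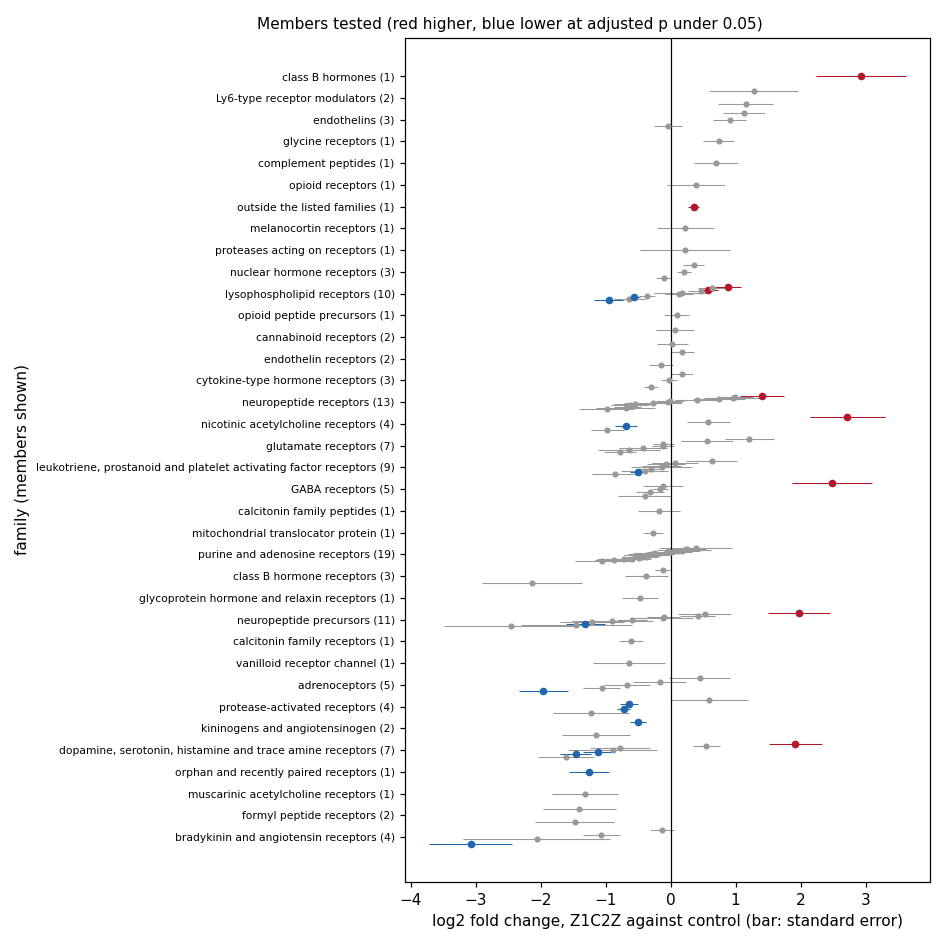
Log2 fold change of 135 of the 137 tested members, Z1C2Z against control, with its standard error, grouped by family and ordered by the family median. Red points are 9 higher and blue points 13 lower members, and lysophospholipid, nicotinic and amine receptors and neuropeptide precursors hold both colours.

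Genes that make, break down or sense the ligands were taken from separate lists. In peptide processing, Pam, which amidates peptides such as Npy, was lower without overlap (log2 fold change -0.51, edgeR adjusted p = 0.0449). In purine handling 1 of 6 was lower, the ATP-degrading enzyme Entpd1, with 148 ± 25.8 CPM and 80.9 ± 25.4 CPM (SD, n = 4, log2 fold change -0.87, edgeR adjusted p = 0.0452). None of 16 receptor accessory and desensitization genes, 13 amine and acetylcholine genes and 13 lipid ligand genes passed the test. In the latter list, Enpp2, the enzyme that makes lysophosphatidic acid, had 65.6 CPM in controls and 65.8 CPM in Z1C2Z wounds.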

How the data were processed

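Wound skin RNA of 4 control and 4 Z1C2Z samples was sequenced. The deposited table gives unnormalized counts for 18540 genes beside pathway annotation. Aligner, counting program, genome build and strand setting are not given in the sources used here. The methods name the RNA Easy Fast kit and the labels Trizol. The labels add rRNA depletion, random priming and dUTP in the second strand. All per-sample columns were used (0 left out). Samples were grouped by their titles.

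The fit was made with edgeR 4.0.16 under R 4.3.3 (filterByExpr, TMM, quasi-likelihood test, Benjamini-Hochberg adjustment over 15147 genes). Standard errors were derived from its F statistic. Fold changes used a prior count of 0.125. Single genes were also tested on log2 CPM (prior count 2) by exact permutation, two-sided, over 70 arrangements of 4 against 4. Libraries of a group differed by more than sampling noise (smallest chi-square 21.9 per degree of freedom). RPKM used exon lengths of GENCODE M21, and promoters came from RefSeq.

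The members and gene lists were chosen with earlier results of these data known. The text names each member with an adjusted p under 0.05, up to 8 members per direction with the largest fold change among those whose groups do not overlap, the member with most reads in each family with 3 or more tested, partners of called genes, the 10 members with most reads, those at the limit of 10 counts, and in accessory lists the called genes and up to 3 others. Some genes that this rule selects are not reported here. Cck, Chrnd, Ctsg, Edn3, Enpp2, F2, F2rl2, F2rl3, Fpr1, Fpr2, Gpr50, Gzma, Hdc, Mrap, Ntsr2, P2ry10, P2ry10b, Plg, Ramp3, S1pr3, S1pr5, Sctr and Tspo were named after their values were seen, and Gpr35, Gpr50, Trpv1 and P2ry10b were assigned to a receptor family then. Alternatives were DESeq2 1.42.0, RLE size factors, 2 other low-count filters, a prior count of 2, the sample number as a block, the whole pathway and each sample left out. Leaving out Z1C2Z-2 and Z1C2Z-4 together was added after seeing the data.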

Additional observations from a re-analysis of the deposited data

Results flagged for a closer look

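Of 84 groups of 4 samples examined (each called or named member in each group), 1 had a sample far from the others, and chance flags about 1 in 20 such groups. In the control group, Chrnb1 had 5.48 CPM in control-3 against 7.97 to 8.33 CPM in the other control samples. On the log2 CPM scale the gap was 0.896 of the whole range.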

How the results depend on the processing

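With DESeq2 in place of edgeR, 17 members were higher and 27 lower at any fold, and 13 were lower with the log2 fold threshold. When at least 10 counts were required in every sample, 4 members were higher at any fold and 2 with the fold threshold. The sample numbers 1, 2 and 5 occur in both groups. Deviations of samples with the same number correlated at r = -0.10, -0.06 and 0.32. These few values and the labels do not settle whether the numbers pair the samples. With the sample number as a replicate block, 3 members were higher at any fold, the same number with the fold threshold, and 6 were lower at any fold. That fit takes no information from control-3 and Z1C2Z-4, which have no partner. RLE size factors, no low-count filter and the whole pathway left each count within 1.5 times the reported one. With 1 sample left out, edgeR gave 0 to 12 higher and 0 to 11 lower members with the fold threshold, 0 to 16 and 0 to 18 at any fold, and a median log2 fold change of -0.24 to -0.16. Without both Z1C2Z-2 and Z1C2Z-4, edgeR called 0 members higher and 0 lower at either threshold, with 35 members at an unadjusted p under 0.05 and a median log2 fold change of -0.20. All 23 called members kept their direction in every fit that tested them. The causes were not tested beyond the smaller number of samples or genes in these fits.

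Genes that changed sign had no call in any fit in which they did so. Under the replicate block, Agtr2 had a log2 fold change of 0.82, Gria3 0.10 and Lepr 0.0357. With 1 sample left out, Edn1 ranged from -0.18 to 0.0859, Gria3 from -0.21 to 0.0639, Lepr from -0.11 to 0.0693 and Npy1r from -0.13 to 0.0585. Without Z1C2Z-2 and Z1C2Z-4, Lepr had 0.0591 and Nr3c1 0.0696. Genes with few reads, such as Adra1d, Npy and Sct, are measured with large counting error, and the 73 members below the filter were not compared.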

Other observations

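Among the 73 members below the low-count filter, the melatonin receptor relative Gpr50 had 0, 1, 0 and 1 reads in the control libraries, and 2, 13, 14 and 2 reads in the Z1C2Z libraries, in the order of the sample numbers. It was chosen after its values were seen and was not tested.

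Cholecystokinin (Cck) had 0.995, 0.194, 0.496 and 5.24 CPM in the control samples and 0.0564, 0.596, 0.126 and 0.471 CPM in the Z1C2Z samples. Control-5 alone was above 1 CPM, and the difference did not pass the test (log2 fold change -2.46, edgeR adjusted p = 0.158). In the accessory lists, Hdc, the enzyme that makes histamine, had group means of 32.3 CPM and 12.6 CPM with overlapping groups and did not pass (edgeR adjusted p = 0.117). Mrap and Ramp3, small proteins that carry melanocortin and calcitonin family receptors to the surface, had groups that did not overlap, with the lower levels in Z1C2Z wounds, but did not pass (edgeR adjusted p = 0.0537 and 0.0613).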
